A study of Mus musculus with 20 samples.

Results

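The interaction of rosuvastatin and geranylgeraniol (GGOH) in the mouse liver was measured as the statin effect in mice that also received GGOH minus the statin effect in mice that did not. It was calculated from all 20 liver libraries of the series, and 12789 of the 34933 named entries had enough counts to be tested. The livers came from wild-type (WT) mice with diet-induced obesity, given vehicle, rosuvastatin alone, GGOH alone or rosuvastatin with GGOH, with 5 libraries in each group. Diet-induced obesity was common to all 4 groups, so no value here refers to lean mice. Dose, route, duration, age, sex and strain are not given in the sources used here. Nothing in them says that the 5 libraries of a group came from separate animals; each is called a mouse below, and p-values measure only the spread between these samples.

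Rosuvastatin blocks the synthesis of mevalonate, the precursor of cholesterol. Low cholesterol in the endoplasmic reticulum releases the transcription factor SREBP2, which raises the genes of cholesterol synthesis and uptake. Mevalonate also feeds the isoprenoid branch, which makes geranylgeranyl diphosphate for the lipid tails of Rab proteins and other small GTPases, and GGOH is an alcohol that cells can convert to that diphosphate. The interaction therefore compares the response of the liver to the same statin with and without an outside supply of the branch product.

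No gene passed the threshold for the interaction. By the edgeR quasi-likelihood test, 0 of 12789 genes (0%) had an adjusted p of at most 0.05, and the smallest adjusted p was 0.999. At an unadjusted p under 0.05 there were 369 genes (2.89%), with 639 expected by chance, and at p under 0.01 there were 37, with 128 expected. Of the 369, 268 (2.10% of the genes tested) were positive, meaning a higher statin effect with GGOH than without, and 101 (0.790%) were negative. DESeq2 also called 0 genes, with 453 at an unadjusted p under 0.05 and a smallest adjusted p of 0.151, for Tlr5. No gene (0%) had groups without overlap in both statin comparisons and in opposite directions. Every value named below is therefore a description of these 20 livers, and no gene is said to have risen or fallen.

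The interaction of a typical gene was small beside its error. Its median over all genes was 0.02 on the log2 scale, and the 5th and 95th percentiles were -0.59 and 0.84. The standard error of a gene had a median of 0.35, and the 95% interval a median reach of 0.72 to each side of the estimate. For 6696 genes (52.4%) the whole interval lay within 1 log2 unit of 0, that is, within a 2-fold difference between the statin effects. For the other genes the interval reached or passed a 2-fold difference in at least 1 direction. Counts were also simulated at the same depth and per-gene spread, with each gene drawn independently. In them 20% of true interactions of 1 log2 unit and 77% of those of 2 log2 units were called, with 6 false calls. Variation shared by many genes of a mouse was not simulated, so the rates may differ in these livers. Averaged over genes, the statin accounted for 9.85% of the variation between mice in log2 CPM (a gene's share of the library's counts, scaled to a fixed total), GGOH for 3.11%, the interaction for 4.34% and the differences between mice of 1 group for 82.7%. A term with no effect holds 5.26% on average in this design.

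The libraries held between 8548120 and 18373913 estimated counts, and replicate libraries of a group correlated at 0.892 to 0.975 across genes. Hepatocyte RNA dominated all groups: albumin (Alb) had a mean TPM of 26859 in vehicle mice, 24428 in rosuvastatin mice, 24442 in GGOH mice and 22455 in combination mice. Transcripts encoded by mitochondrial DNA took 13.6 ± 1.61% of counts (SD, n = 5) in vehicle mice and 13.9 ± 3.18% in rosuvastatin mice. Their share was 12.9 ± 3.41% in GGOH mice and 19.4 ± 8.89% in combination mice. Within the combination group, mice 2 and 3 stood at 27.9% and 29.2%, and mice 1, 4 and 5 at 17.1%, 13.4% and 9.12%. Combination mouse 3 also had the fewest counts of all 20 libraries. In these bulk livers, fewer cells of a type and less RNA per cell cannot be told apart.

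**Figure D1:**
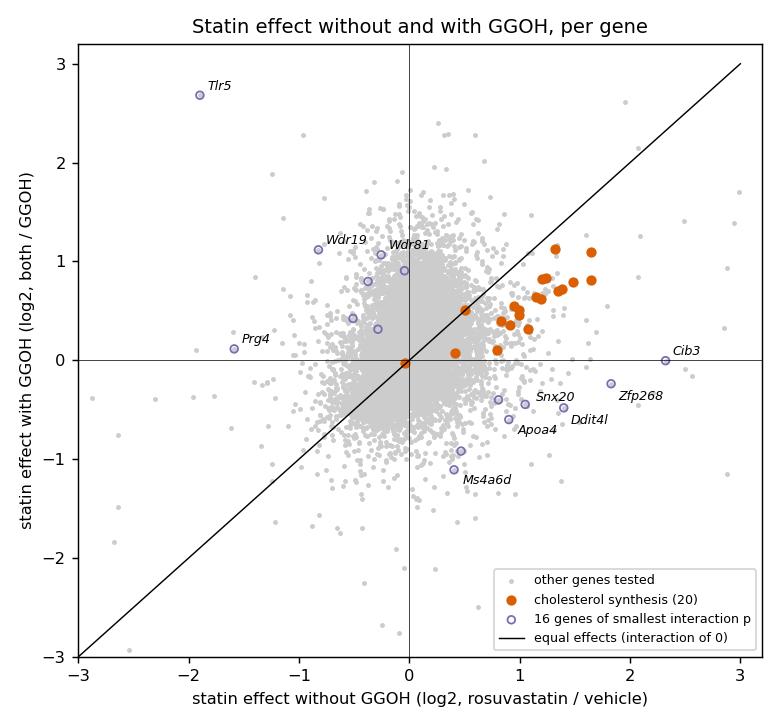
The statin effect of each gene without GGOH (rosuvastatin minus vehicle, horizontal axis) and with GGOH (combination minus GGOH, vertical axis), both as fitted log2 fold changes; points on the diagonal have an interaction of 0. Genes of cholesterol synthesis lie mainly to the right of the diagonal, Tlr5 and Prg4 lie above it, and 11 genes fall outside the plotted range.

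The genes of cholesterol synthesis are shown first by sequence, since a shared regulator of this list is known. Promoter sequences of 15 of the 20 members were matched by symbol to RefSeq (GRCm38.p6). The 250 bases before each start were searched on both strands for CCAAT, the NF-Y box, and for TCACNCCAC, a sterol element. The 15 genes had 18 promoter entries, and a gene counted if any of its promoters matched. CCAAT was found in 14 of the 15 genes (93.3%), against 37.5% of 27025 genes with a RefSeq promoter. The sterol element was found in 1 of 15 (6.67%), Hmgcs1, against 1.22% of the 27025 genes. A match is a description of letters, and no match says only that these exact letters are not in the window. The 3 sequences below were chosen after the values were seen: Hmgcs1 holds both motifs, Mvd had a large statin effect without GGOH, and Ebp had almost none. Capitals mark the motif matches, with ATTGG as CCAAT on the other strand.
Hmgcs1, chr13:119690101-119690350, plus strand: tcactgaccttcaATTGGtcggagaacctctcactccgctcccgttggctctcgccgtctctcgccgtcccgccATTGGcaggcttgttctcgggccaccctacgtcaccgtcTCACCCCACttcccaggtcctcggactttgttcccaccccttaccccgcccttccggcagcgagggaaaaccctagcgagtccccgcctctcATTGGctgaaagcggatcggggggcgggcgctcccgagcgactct
Mvd, chr8:122443423-122443672, minus strand: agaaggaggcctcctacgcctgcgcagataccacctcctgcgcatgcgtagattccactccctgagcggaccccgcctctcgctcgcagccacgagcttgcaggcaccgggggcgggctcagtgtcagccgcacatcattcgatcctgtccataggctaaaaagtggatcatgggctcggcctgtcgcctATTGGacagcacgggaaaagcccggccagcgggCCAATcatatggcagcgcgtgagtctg
Ebp, chrX:8193513-8193762, minus strand: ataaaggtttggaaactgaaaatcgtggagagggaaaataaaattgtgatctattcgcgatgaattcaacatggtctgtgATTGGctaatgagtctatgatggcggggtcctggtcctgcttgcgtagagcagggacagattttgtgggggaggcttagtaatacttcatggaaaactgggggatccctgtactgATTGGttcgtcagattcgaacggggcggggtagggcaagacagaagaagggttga

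Cholesterol synthesis had the same sign in nearly the whole list, and no member was distinguishable from 0. All 20 members were tested: 18 had a negative interaction, as had 47.7% of all genes, and 2 a positive one. The median was -0.52 against 0.02 over all genes. Most members rose and fell together in the same mice, so the 18 are not separate observations. Summed over the list, CPM ran from 1160 to 2736 in vehicle mice and from 1538 to 5560 in rosuvastatin mice. The sums ran from 1063 to 1843 in GGOH mice and from 1332 to 2708 in combination mice. The members ran from -0.83 (Fdps) to 0.02 (Ebp), and 0 of 20 had an unadjusted p under 0.05. The interval of each member included 0, that of 18 members also included -1, a statin effect 2-fold smaller with GGOH, and that of 3 included 1. The median statin effect of the list was 1.11 without GGOH, with 17 members at an unadjusted p under 0.05 (3.69% of all genes were), and 0.58 with GGOH, with 1 such member (14.0% of all genes). These 2 counts come from separate comparisons, and the test of their difference is the interaction, in which no member passed. In each statin comparison, too, 0 of 12789 genes (0%) had an adjusted p of at most 0.05 by edgeR. Leaving out 1 mouse at a time gave a list median between -0.77 (without rosuvastatin mouse 5) and -0.22 (without rosuvastatin mouse 3). Without rosuvastatin mouse 3 the statin effect without GGOH had a median of 0.77, with 8 members at an unadjusted p under 0.05.

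Fdps, which makes farnesyl diphosphate, the last shared precursor of cholesterol and GGOH's diphosphate, lies on chromosome 3 from 89093588 to 89101959 (GRCm38). It was at 72.7, 63.9, 15.5, 27.4 and 16.7 CPM in the vehicle mice and at 150, 53.0, 252, 118 and 40.7 with rosuvastatin. With GGOH it was at 21.2, 43.8, 24.0, 33.9 and 56.7, and with the combination at 76.8, 25.3, 106, 70.2 and 38.0. The groups overlapped in each comparison, and rosuvastatin mouse 3 was the highest of the 20. The statin effect on Fdps was 1.64 ± 0.51 (log2, SE) without GGOH and 0.81 ± 0.50 with it, and the interaction was -0.83 ± 0.71 (95% interval -2.30 to 0.64). Without rosuvastatin mouse 3 the interaction of Fdps was -0.42.

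Hmgcs1, the synthase that makes HMG-CoA, lies on chromosome 13 from 119690379 to 119708260. The vehicle mice had 240, 454, 98.1, 172 and 153 CPM, the rosuvastatin mice 400, 219, 843, 564 and 192. The GGOH mice had 88.5, 216, 210, 195 and 209, and the combination mice 291, 163, 371, 307 and 126. Rosuvastatin mouse 3 was again the highest, and the groups overlapped. The interaction of Hmgcs1 was -0.54 ± 0.59 (95% interval -1.77 to 0.70). It was -0.98 without vehicle mouse 2 and -0.19 without rosuvastatin mouse 3.

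Mvd, which makes isopentenyl diphosphate, had 11.1, 17.3, 2.15, 5.92 and 3.44 CPM with vehicle and 31.8, 14.8, 46.3, 26.1 and 5.64 with rosuvastatin. With GGOH it had 3.03, 9.07, 4.87, 5.30 and 8.74, and with the combination 24.6, 4.43, 17.7, 12.8 and 7.54. Mice 1, 3 and 4 of the rosuvastatin group and mice 1 and 3 of the combination group were above all vehicle and GGOH mice. The interaction of Mvd was -0.55.

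Other steps of the pathway had intervals of like width. Acat2, which condenses acetyl-CoA, had the smallest unadjusted p of the list. Its statin effect was 0.80 ± 0.28 without GGOH and 0.10 ± 0.27 with it, and its interaction was -0.69 ± 0.39 (95% interval -1.50 to 0.11). Sqle, squalene epoxidase, was at -0.66 ± 0.86 (-2.45 to 1.14), and at -0.18 without rosuvastatin mouse 3. Lss, lanosterol synthase, was at -0.19 ± 0.63. Ebp, a sterol isomerase, had an interaction of 0.02 ± 0.28, and its statin effect was near 0 both without GGOH (-0.04 ± 0.20) and with it (-0.02 ± 0.20). Its promoter, printed above, holds CCAAT as do those of Hmgcs1 and Mvd.

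**Figure D2:**
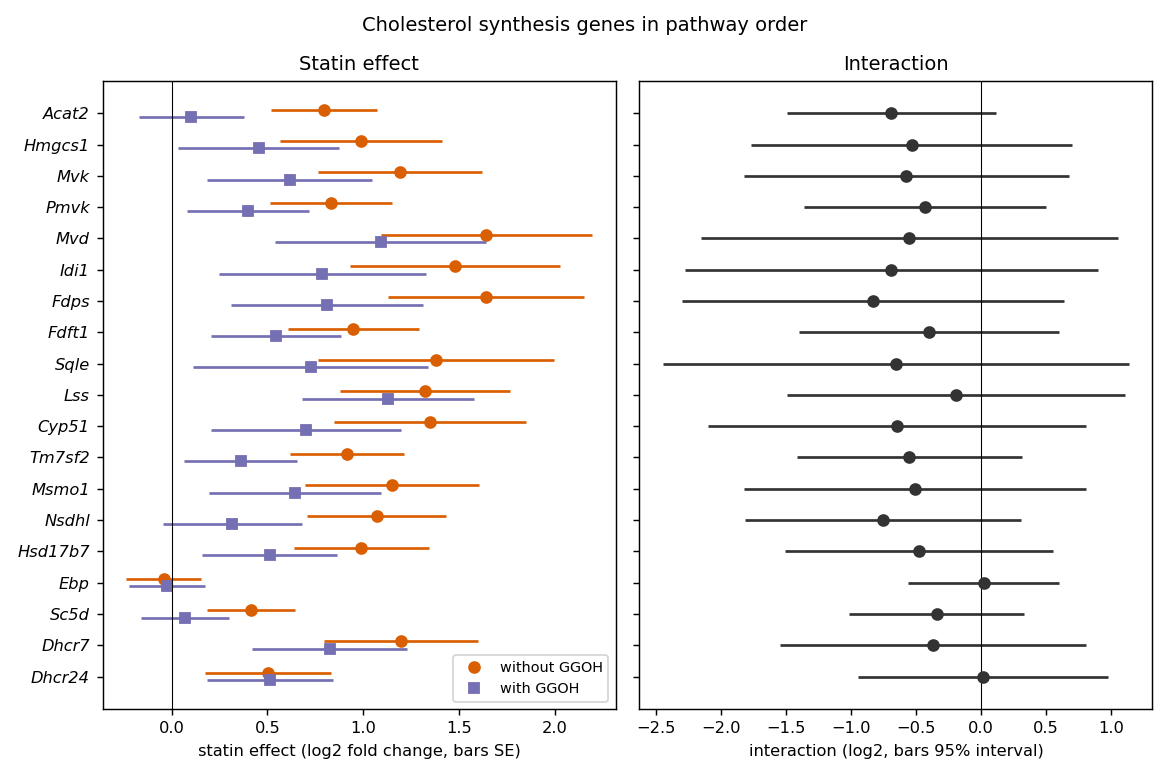
Cholesterol synthesis genes in pathway order (19 of 20 drawn): left, the statin effect (log2, bars SE) without and with GGOH; right, the interaction (log2, bars 95% interval). All 19 intervals drawn include 0; 17 of the 19 estimates lie below it.

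Genes of sterol uptake and control did not share the sign of the synthesis genes. Of 16 tested, 9 were positive and 7 negative, with a median of 0.09 (-0.08 without vehicle mouse 1), and 0 had an unadjusted p under 0.05. Insig1, which retains the SREBP escort protein, was at -0.13 ± 0.45. Insig2, its relative, was at -0.68 ± 0.34 (unadjusted p = 0.0604 by edgeR), the smallest p of this list. Insig2 was at 207, 202, 207, 236 and 201 CPM in the combination mice and at 344, 245, 332, 390 and 287 in the GGOH mice, so those groups did not overlap. Of all genes, 0.516% did not overlap between rosuvastatin and vehicle, 2.26% between the combination and GGOH, 0.430% between GGOH and vehicle, and 0.266% between the combination and rosuvastatin. In the vehicle mice it ran from 111 to 375, and in the rosuvastatin mice from 166 to 322.

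In the isoprenoid and prenylation list, 6 of 18 members were positive and 12 negative, with a median of -0.03 and 0 at an unadjusted p under 0.05. Ggps1, the synthase of geranylgeranyl diphosphate, had an interaction of 0.13 ± 0.29 (95% interval -0.47 to 0.72), an interval that excludes a 2-fold interaction in either direction in this fit. On log2(TPM + 1) the sign of Ggps1 turned, to -0.19. Chm, an escort protein that presents Rab proteins for prenylation, had the smallest p (-0.41 ± 0.22). It was at -0.17 when combination mice 2 and 3 and vehicle mouse 1 were left out. In the list of small GTPases, YAP targets and cytoskeleton genes, 8 of 17 were positive and 9 negative (median -0.05, and 0.03 without vehicle mouse 4). The YAP target Amotl2 was the 1 member at an unadjusted p under 0.05 (0.74 ± 0.34), and was at 0.24 without those 3 libraries.

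**Figure D3:**
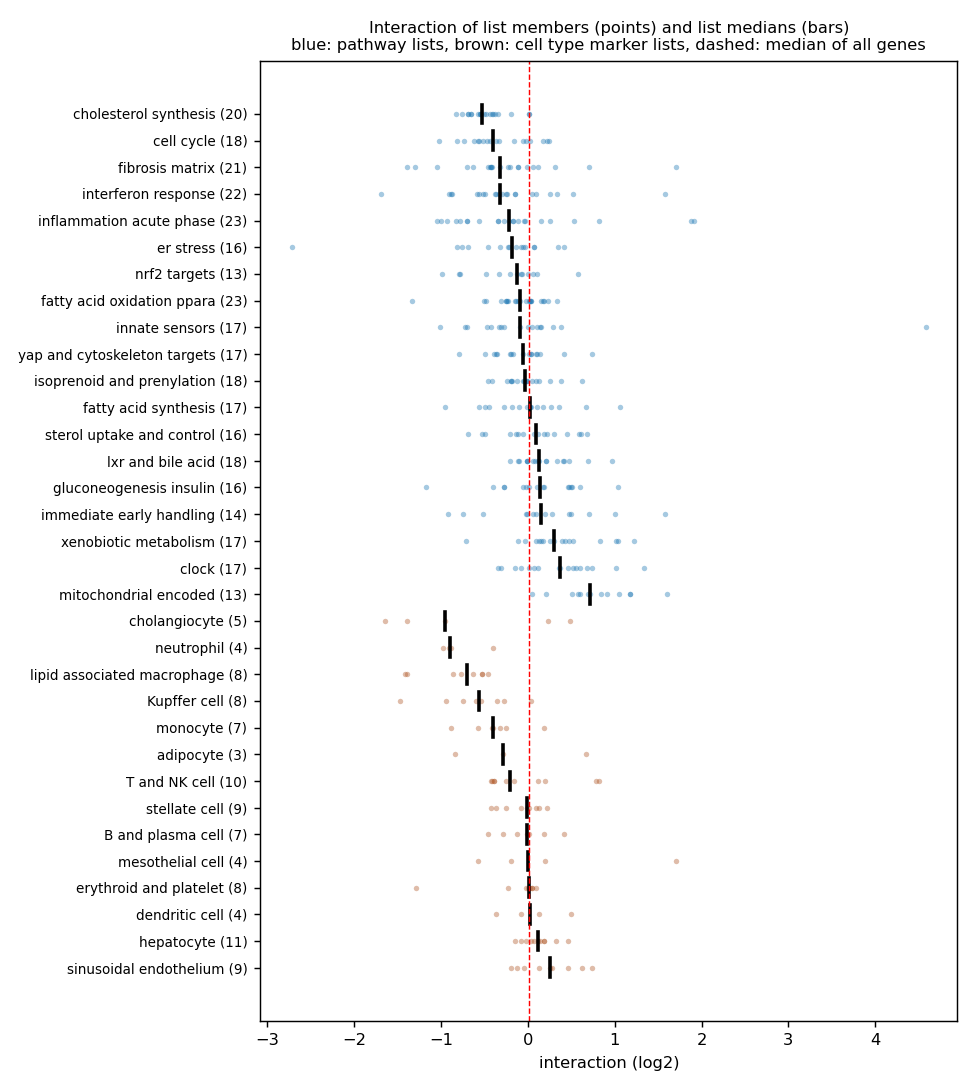
Interaction (log2, horizontal axis) of the members of each list (points) and the list median (bars), with pathway lists above and cell type marker lists below. Among pathway lists, mitochondrially encoded genes have the highest median (0.72) and cholesterol synthesis the lowest (-0.52); the median over all genes is 0.02.

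By rule, 8 positive and 8 negative genes were named, and each had an adjusted p of 0.999 by edgeR. The smallest unadjusted p (0.000578) was that of Tlr5, the receptor for bacterial flagellin, on chromosome 1 from 182954788 to 182976044. Tlr5 was at 5.67, 0.654, 3.39, 0.376 and 0.859 CPM with vehicle and at 0.491, 0.545, 0.454, 1.05 and 0.498 with rosuvastatin. With GGOH it was at 0.391, 0.615, 0.569, 0.338 and 0.891, and with the combination at 2.17, 2.52, 13.4, 0.751 and 0.352. Vehicle mice 1 and 3 and combination mice 1 to 3 were above the other 15, and the groups overlapped. The statin effect on Tlr5 was -1.90 ± 0.79 without GGOH and 2.68 ± 0.81 with it, and the interaction was 4.58 ± 1.13 (95% interval 2.23 to 6.93). It was 2.06 (unadjusted p = 0.0279) without vehicle mouse 1 and combination mice 2 and 3.

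Prg4, which encodes the secreted glycoprotein lubricin, lies on chromosome 1 from 150449412 to 150466165. It had 64.2, 109, 32.7, 26.4 and 21.0 CPM with vehicle and 13.4, 26.3, 14.3, 12.6 and 17.5 with rosuvastatin. It had 23.4, 20.8, 17.8, 19 and 16.9 with GGOH and 17.0, 32.8, 24.1, 16.8 and 15.3 with the combination. Vehicle mice 1 and 2 were the highest of all, and the other 18 mice lay between 12.6 and 32.8 CPM. The statin effect on Prg4 was -1.59 ± 0.35 without GGOH and 0.11 ± 0.35 with it, and the interaction was 1.70 ± 0.49 (unadjusted p = 0.00237 by edgeR).

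Shroom1, which encodes a protein that binds actin, lies on chromosome 11 from 53457205 to 53467766. It was at 10.9, 15.9, 15.7, 10.3 and 11.1 CPM in the combination mice, above all 5 GGOH mice (5.25 to 10.2) and all 5 rosuvastatin mice (6.29 to 10.2). The vehicle mice had 10.6, 7.19, 11.5, 7.90 and 6.78. The interaction of Shroom1 was 0.95 ± 0.30 (unadjusted p = 0.00428 by edgeR). It was 0.61 (unadjusted p = 0.0648 by edgeR) without vehicle mouse 1 and combination mice 2 and 3.

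Wdr81, whose product acts on endosomes and autophagy, lies on chromosome 11 from 75440944 to 75454717. It was at 19.1, 9.53, 19.4, 9.02 and 6.01 CPM with vehicle, and at 7.65 to 15.0 with rosuvastatin. It was at 7.03, 7.48, 6.32, 5.19 and 8.80 with GGOH, and at 10.2, 18.9, 22.7, 8.89 and 12.5 with the combination. Every combination mouse was above every GGOH mouse, with mice 2 and 3 highest. The interaction of Wdr81 was 1.32 ± 0.43, and 0.64 (unadjusted p = 0.123 by edgeR) without the same 3 libraries. The other positive genes were Wdr19, a protein of transport in cilia, at 1.94 ± 0.58 (1.2 without them), Ccdc9b at 1.17 ± 0.35, Atp23, a mitochondrial protease, at 0.93 ± 0.31, and Albfm1 at 0.60 ± 0.18.

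The 8 named negative genes all had higher means with either compound alone than with vehicle or with both, an order that a negative interaction favours. For Cib3 the means with GGOH (2.41 CPM) and with both (2.37 CPM) were nearly equal. Snx20, a sorting nexin of blood cells on chromosome 8 from 88626563 to 88636128, had 0.382, 0.561, 0.521, 1.03 and 0.477 CPM with vehicle and 1.54, 1.36, 1.30, 0.755 and 1.11 with rosuvastatin. It had 0.976, 1.64, 1.45, 0.959 and 1.37 with GGOH and 0.767, 1.04, 1.29, 0.876 and 0.805 with the combination. Vehicle mouse 4 was the only vehicle mouse within the range of the other groups. The statin effect on Snx20 was 1.05 ± 0.31 without GGOH and -0.45 ± 0.29 with it, and the interaction was -1.50 ± 0.42 (unadjusted p = 0.00192 by edgeR).

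Zfp268, a zinc finger gene of a large family in which reads can be divided between copies, had means of 0.442 ± 0.156 CPM (SD, n = 5) in vehicle mice, 1.59 ± 1.05 in rosuvastatin mice, 1.39 ± 0.404 in GGOH mice and 1.19 ± 0.572 in combination mice. All rosuvastatin mice and all GGOH mice were above all vehicle mice. The interaction of Zfp268 was -2.07 ± 0.61 (unadjusted p = 0.00265 by edgeR), and -2.63 without the 3 libraries named above. Zfp78, of the same family, was at -1.21 ± 0.43.

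Apoa4, an apolipoprotein of triglyceride-rich particles, lies on chromosome 9 from 46240696 to 46243459. The vehicle mice had 1753, 1786, 1312, 1402 and 1323 CPM and the GGOH mice 2020, 3074, 2190, 3332 and 3700. The rosuvastatin mice had 3573, 972, 4942, 1155 and 3508, and the combination mice 1934, 1056, 2334, 2375 and 1747. All GGOH mice were above all vehicle mice, and the rosuvastatin mice were split, with mice 1, 3 and 5 high and mice 2 and 4 low. The statin effect on Apoa4 was 0.90 without GGOH and -0.60 with it, and the interaction was -1.50 ± 0.50 (unadjusted p = 0.00656 by edgeR), or -1.48 without vehicle mouse 1 and combination mice 2 and 3.

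Cib3, a calcium-binding protein, lies on chromosome 8 from 72204335 to 72212837. It was at 4.77, 2.31, 19.8, 8.36 and 3.65 CPM with rosuvastatin, above all vehicle mice (0.859 to 2.26). It was at 2.44, 1.74, 0.506, 3.61 and 3.74 with GGOH and at 2.94, 0.602, 1.50, 2.25 and 4.58 with the combination. Rosuvastatin mouse 3 was the highest, as for Fdps and Hmgcs1. The interaction of Cib3 was -2.33 ± 0.80.

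Ms4a6d, a membrane protein of macrophages with close relatives in its cluster, lies on chromosome 19 from 11586604 to 11604849. It had 7.62, 10.4, 5.44, 6.15 and 2.85 CPM with GGOH and 2.49, 2.13, 2.57, 3.19 and 4.58 with the combination. The vehicle mice ran from 1.29 to 5.17 and the rosuvastatin mice from 3.00 to 4.98. GGOH mice 1 to 4 were above all other mice. The interaction of Ms4a6d was -1.51 ± 0.47 (unadjusted p = 0.00401 by edgeR).

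Ly9, a receptor of leukocytes, lies on chromosome 1 from 171588624 to 171607410. It had 1.53, 1.91, 1.07, 1.44 and 2.11 CPM with the combination, below all rosuvastatin mice (2.18 to 3.35). The GGOH mice had 3.91, 4.61, 2.97, 2.99 and 1.07, and the vehicle mice 1.53 to 2.52. The interaction of Ly9 was -1.39 ± 0.41. Ddit4l, an inhibitor of mTOR signalling, was at -1.88 ± 0.60.

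**Figure D4:**
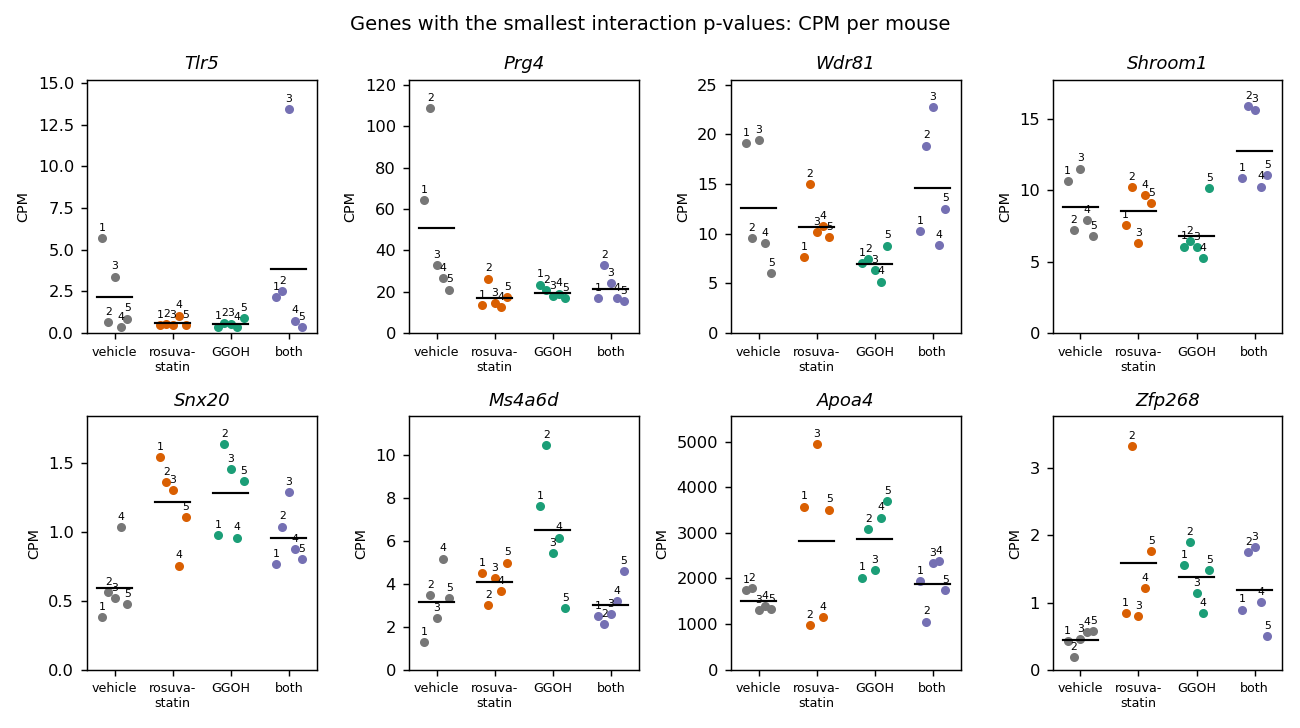
CPM of 8 genes (linear axes) in each mouse (points, numbered within the group; "both" is the combination), with group means as lines. Tlr5 is highest in combination mouse 3 (13.4 CPM), and Apoa4 is above all vehicle mice in all GGOH mice.

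Macrophage markers were measured beside Ms4a6d and Ly9. All 8 markers of lipid-associated macrophages, cells that gather around fat in obese liver, had a negative interaction, with a median of -0.70. Spp1 had an interaction of -1.39 ± 0.55 (unadjusted p = 0.0201 by edgeR) and Cd63 one of -1.41 ± 0.59 (unadjusted p = 0.0274 by edgeR). Spp1, osteopontin, had a mean of 45.8 CPM in vehicle mice, 69.7 in rosuvastatin mice, 49.0 in GGOH mice and 28.5 in combination mice. Spp1 is also in the cholangiocyte marker list, where it had the smallest p. The summed level of the 8 markers ran from 97.9 to 184 CPM in vehicle mice, 96.9 to 300 with rosuvastatin, 113 to 242 with GGOH and 84.0 to 188 with the combination, so the groups overlapped.

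Kupffer cell markers, those of the resident macrophages, were negative in 7 of 8 (median -0.56, but 0.08 with sample quality weights). Their summed level ran from 168 to 361, 187 to 446, 142 to 442 and 168 to 294 CPM in the same order of groups. Monocyte markers were negative in 6 of 7, with a median of -0.40 that became -0.02 without GGOH mouse 2 and 0.01 with sample quality weights. The 4 neutrophil markers that could be tested, of 9, were all negative (median -0.90). Whether RNA of macrophages or of other leukocytes has a part in the values of Ms4a6d and Ly9 was not tested. Hepatocyte markers were negative in 3 of 11 (median 0.12), sinusoidal endothelium in 3 of 9 (0.26) and stellate cells in 5 of 9 (-0.01). T and NK cell markers had a median of -0.20 (0.07 without rosuvastatin mouse 3). Cholangiocyte markers had -0.95 over 5 members, 3 negative and 2 positive. That median was -0.33 without rosuvastatin mouse 3 and -0.12 at the highest of the alternatives. Medians were -0.01 for B cell and plasma cell markers, 0.02 over 4 for dendritic cell markers and 0.01 for erythroid and platelet markers. Adipocyte markers had -0.28 over 3 and mesothelial markers 0.00 over 4. The medians of stellate, B, dendritic, erythroid and mesothelial markers changed sign when single mice were left out. Those of hepatocyte, sinusoidal endothelium and adipocyte markers changed sign in other alternatives, reaching -0.10, -0.05 and 0.39.

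Most of the positive genes shared a pattern across mice. Of the 268 positive genes at an unadjusted p under 0.05, 248 (92.5%) had the highest of the 5 combination values in mouse 2 or mouse 3. This held for 48.2% of all genes tested and for 15 of the 101 negative genes (14.9%). A high combination value raises the interaction, so the genes were picked partly by these same values. Shares among them therefore differ from 48.2% in part by that choice, and the comparison is no test. Mice 2 and 3 are also those whose mitochondrial share was high. The part of that share, or of the low count of mouse 3, in these values was not tested. Without combination mice 2 and 3, a choice made after the data were seen, 138 genes were at an unadjusted p under 0.05, 54 positive and 84 negative. Of the original genes, 34 of the 268 positive and 35 of the 101 negative ones were among them. Some loss is built in, since values by which the genes were picked are removed and fewer mice remain. Without vehicle mouse 1 as well there were 220, of which 64 (29.1%) were positive, against 72.6% in all 20 libraries, and 22 of the 268 and 36 of the 101 remained.

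The direction also differed between fits. On log2(TPM + 1) the positive share was 21.9% of 274 genes, and on log2(TPM + 0.1) it was 17.9% of 263. The median over all genes moved to -0.08 and -0.13 in those fits, from 0.02. Those fits changed the test and the normalisation along with the scale, and the part of each was not tested. With sample quality weights the positive share was 40.3% of 370, and without mitochondrial genes in the library size 64.2% of 355. Leaving out single mice gave 46.2% of 346 without vehicle mouse 1, 50.3% of 199 without vehicle mouse 3, and 52% of 200 without combination mouse 3. The majority of positive genes was thus present in some of these fits and absent in others. The cholesterol synthesis list had a median of -0.57 with 19 of 20 members negative without vehicle mouse 1 and combination mice 2 and 3. Without rosuvastatin mouse 3 its median was -0.22 with 17 of 20 negative, so the size of this value also depended on single mice.

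**Figure D5:**
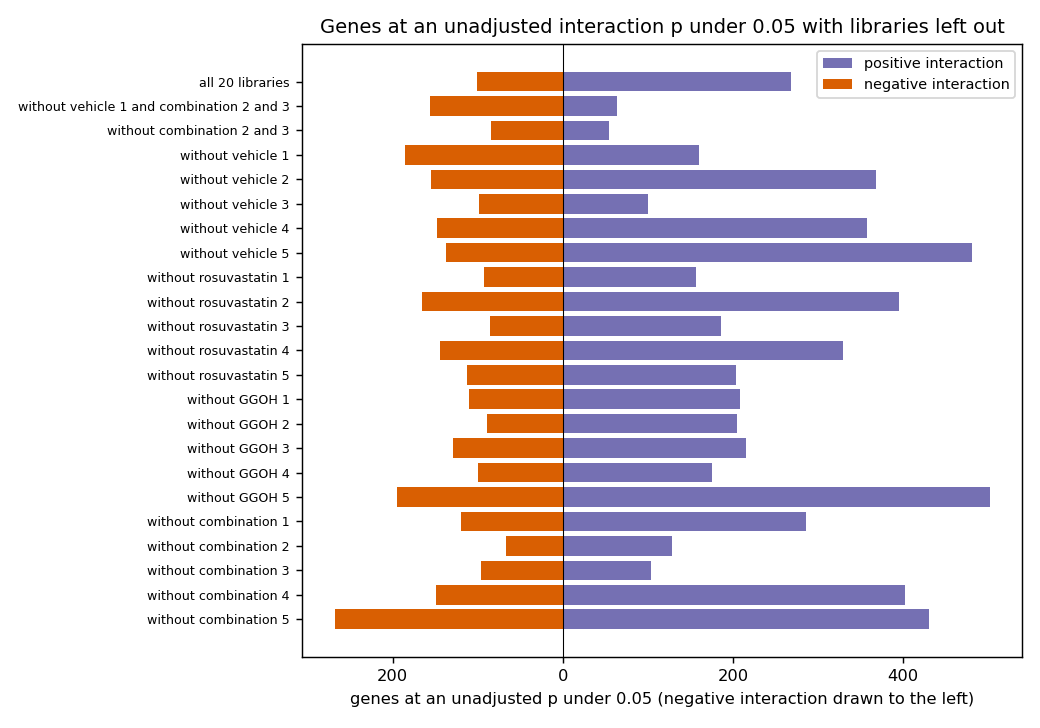
Number of genes at an unadjusted p under 0.05 for a positive and for a negative interaction, with all 20 libraries and with the libraries named at the left of each bar left out. The positive count is 268 with all libraries and 54 without combination mice 2 and 3.

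Mitochondrially encoded genes were all positive: 13 of 13, with a median of 0.72, and the interaction held 9.01% of their variation between mice. The 1 member at an unadjusted p under 0.05 was mt-Nd4l, a subunit of respiratory complex I (1.18 ± 0.55). It had 2321, 4310, 3877, 1295 and 598 CPM with the combination and 727, 1799, 1406, 1050 and 1752 with GGOH. The vehicle mice ran from 1364 to 2066 and the rosuvastatin mice from 808 to 2021. Combination mice 2 and 3 were the highest of the 20 and combination mouse 5 the lowest. The interaction of mt-Nd4l was 0.43 without vehicle mouse 1 and combination mice 2 and 3.

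Leading genes of glucose control, the clock and bile acid transport had their highest combination values in mice 2 and 3. Irs2, the insulin receptor substrate of the fasted liver, lies on chromosome 8 from 10984681 to 11008458. Irs2 had 5.31, 8.15, 8.48, 6.01 and 7.79 CPM with the combination and 3.22, 3.53, 3.48, 2.09 and 5.41 with GGOH, and its interaction was 1.04 ± 0.42 (unadjusted p = 0.0221 by edgeR), or 0.68 without the 3 libraries. Of the 16 genes of gluconeogenesis and insulin signalling, 10 were positive (median 0.14, and 0.01 without vehicle mouse 1). Mlxipl, the carbohydrate sensor ChREBP of the fatty acid synthesis list, had 108, 235, 260, 64.8 and 74.0 CPM with the combination and 61.9, 67.9, 62.5, 58.9 and 103 with GGOH. The interaction of Mlxipl was 1.06 ± 0.48, and 0.24 without the same 3 libraries. The fatty acid synthesis list had 9 of 17 positive members and a median of 0.02, which was -0.29 without vehicle mouse 1. Fasn, the fatty acid synthase, was at -0.18 ± 0.55, and at -1.03 (unadjusted p = 0.0752 by edgeR) without the same 3 libraries.

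Among the clock genes, 13 of 17 were positive (median 0.37), led by the nuclear receptor Nr1d1 (1.34 ± 0.58, and 0.49 without the 3 libraries). The median of the clock list was 0.22 without vehicle mouse 1 and 0.03 at the lowest of the alternatives. Nr1d1 had 32.5, 57.3, 63.6, 33.4 and 29.2 CPM with the combination, 11.1, 19.6, 15.4, 12.8 and 39.0 with GGOH, 16.9 to 37.8 with rosuvastatin and 61.1, 13.9, 47.0, 23.5 and 12.1 with vehicle. Vehicle mice 1 and 3 and combination mice 2 and 3 were the 4 highest. The time of day at sampling is not given in the sources used here, and its part was not tested. LXR and bile acid genes were positive in 12 of 18 (median 0.13). Abcb11, the bile salt export pump on chromosome 2 from 69238282 to 69342616, led them at 0.70 ± 0.26 (unadjusted p = 0.0143 by edgeR), or 0.37 without the 3 libraries. Abcb11 had 101, 213, 178, 148 and 162 CPM with the combination and 114 to 139 with GGOH, while it had 125 to 207 with vehicle and 96.9 to 161 with rosuvastatin.

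In fatty acid oxidation and PPAR-alpha targets, 10 of 23 members were positive (median -0.09, and 0.03 without GGOH mouse 3). Fgf21, the fasting hormone of the liver, had the smallest p of that list, on chromosome 7 from 45613886 to 45615490. It had 14.2, 5.14, 2.74, 7.43 and 4.58 CPM with vehicle and 14.7, 6.60, 21.3, 4.24 and 10.7 with rosuvastatin. It had 19.5, 20.1, 15.0, 13.5 and 9.93 with GGOH and 16.9, 5.30, 7.94, 11.5 and 10.1 with the combination. The groups overlapped, with GGOH mice 1 to 3 above all vehicle mice. The interaction of Fgf21 was -1.33 ± 0.59 (unadjusted p = 0.0342 by edgeR), and -1.51 without the 3 libraries.

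Xenobiotic metabolism genes were positive in 14 of 17 (median 0.30), with 0 at an unadjusted p under 0.05. Cyp2b10, a cytochrome induced through the receptor CAR, lies on chromosome 7 from 25897620 to 25926624 among near-identical copies, so its reads may be divided between them. Cyp2b10 had 0.811, 0.467, 1.24, 0.094 and 0.955 CPM with vehicle and 0.702, 0.476, 0.227, 0.639 and 1.72 with rosuvastatin. The low end is a single read. It had 0.976, 2.15, 3.86, 3.95 and 1.49 with GGOH and 4.03, 9.02, 5.15, 8.07 and 3.92 with the combination. All combination mice were above all rosuvastatin mice. The statin effect on Cyp2b10 was 0.04 without GGOH and 1.27 with it, and the interaction was 1.22 ± 0.71 (95% interval -0.24 to 2.69, unadjusted p = 0.0976 by edgeR). Cyp3a11, a related cytochrome, was at -0.71 ± 0.38 (-0.46 without GGOH mouse 4), and Cyp2c29 at 0.26 ± 0.31, with 0.13 to 0.44 when 1 mouse was left out.

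Inflammation and acute phase genes were negative in 17 of 23 (median -0.22, and -0.02 without GGOH mouse 1), led by Socs3, a feedback inhibitor of cytokine signalling, at -0.70 ± 0.36. Interferon response genes were negative in 16 of 22 (median -0.31, and -0.08 without GGOH mouse 2), although the member of smallest p, Oas2, an antiviral RNA sensor, was positive at 1.58 ± 0.66. Oas2 was at 0.56 without vehicle mouse 1 and combination mice 2 and 3. Cell cycle genes were negative in 14 of 18 (median -0.40, and -0.18 without rosuvastatin mouse 3), led by Pcna, the sliding clamp of replication, at -0.52 ± 0.29, or -0.22 without those 3 libraries. Matrix and fibrosis genes, which include Prg4 and Spp1, were negative in 16 of 21 (median -0.31, and 0.01 without rosuvastatin mouse 5). NRF2 targets were negative in 9 of 13 (median -0.12, and -0.02 without rosuvastatin mouse 5), led by the haem-degrading enzyme Hmox1 at -0.99 ± 0.44. Without GGOH mouse 2, Hmox1 was at -0.58 (unadjusted p = 0.128 by edgeR). Innate sensors, which include Tlr5, were negative in 9 of 17 (median -0.09, and 0.15 without GGOH mouse 2). Immediate early genes were negative in 5 of 14 (median 0.15, and -0.09 without vehicle mouse 1), led by Egr1 at 1.58 ± 0.95, or 0.90 without that mouse. ER stress genes were negative in 12 of 16 (median -0.18, and 0.11 without rosuvastatin mouse 3). Asns, asparagine synthetase, had the smallest p of that list at -2.71 ± 1.61, which rests on rosuvastatin mouse 3 (7.88 CPM): without it the interaction was 1.07.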

How the data were processed

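Per the labels' protocols, liver RNA was purified on RNeasy columns, selected for poly(A), made into TruSeq libraries and sequenced in pairs on a NovaSeq instrument. The tools named per the submitters' processing notes are kallisto 0.44.0, bcl2fastq 2.19 and DESeq2 (no version or role given), with GRCm38. The authors deposited estimated counts and TPM per gene, the latter scaled for transcript length and depth. kallisto divides reads between similar transcripts, so close paralogs are uncertain.

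The deposited estimated counts were rounded, and the 1 unnamed entry (0.00801 to 0.0157% of counts) was left out. Genes were filtered by group (12789 kept), normalised by TMM and tested by quasi-likelihood in edgeR 4.0.16 (R 4.3.3), in 1 group-means model over 20 libraries, with Benjamini-Hochberg adjustment over all genes and a threshold of 0.05. The common biological coefficient of variation was 0.300. The value after ± is an SE derived from the F statistic, unless SD is named. CPM are on TMM-scaled library sizes. The test was run on simulated data of 12672 genes. List medians are descriptions with no test, and the members of a list, measured in the same mice, are not separate observations. Alternatives used limma 3.58.1 (on the TPM and with sample weights), DESeq2 1.42.0, other scalings and filters, and each library left out.

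Genes named are 9 focal sterol, isoprenoid, lipid and drug-metabolism genes, the 8 smallest p-values in each direction among genes with an assigned name and an average log2 CPM of at least 0, and the member of smallest p in each pathway list. Alb, Mvd, Ebp, Spp1 and Cd63 fall outside this rule and were picked with their values in view. The comparison, the lists and the rule were chosen with earlier results of these data known. Positions are from GENCODE M21. Promoters are from RefSeq. A further 3 focal genes are not reported here.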

Additional observations from a re-analysis of the deposited data

Results flagged for a closer look

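Dixon's criterion was applied to groups of 5 values, on log2 CPM for the named genes and on untransformed values for library measures. In 10 of 176 groups the highest or lowest mouse stood apart from the other 4, and chance gives 8.8 such groups. Low values were Atp23 in rosuvastatin mouse 3 (2.67 CPM, the others 4.97 to 5.98), Hmgcs1 in GGOH mouse 1 (88.5 CPM, the others 195 to 216) and Zfp268 in vehicle mouse 2 (0.187 CPM, the others 0.429 to 0.573). High values were Insig2 in combination mouse 4 (236 CPM, the others 201 to 207), Mlxipl in vehicle mouse 3 (119 CPM, the others 74.3 to 81.1) and in GGOH mouse 5 (103 CPM, the others 58.9 to 67.9), and Tlr5 in rosuvastatin mouse 4 (1.05 CPM, the others 0.454 to 0.545). The total count was high in vehicle mouse 1 (16776626) and low in GGOH mouse 1 (11350411) and combination mouse 3 (8548120).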

How the results depend on the processing

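The count of 0 genes at adjusted p of at most 0.05 for the interaction held under all 31 alternatives. The 369 genes at an unadjusted p under 0.05 became 742 with no low-count filter, 220 without vehicle mouse 1 and combination mice 2 and 3, and 138 without combination mice 2 and 3 (chosen after the data were seen). Leaving out 1 mouse gave 195 (without combination mouse 2) to 699 (without combination mouse 5), with 697 without GGOH mouse 5. For rosuvastatin against vehicle, edgeR called 0 genes and DESeq2 called 2. Replicate numbers showed no clear pairing of the mice. Across groups, same-numbered mice correlated at -0.443 to 0.474 (median 0.054, against 0.019 for other numbers), and 10 of 30 pairs were over 0.1. Of 20 libraries, 4 correlated best with their own number. Correlations over all genes with 5 mice per group cannot exclude a weak pairing. With the replicate number as a block, 258 genes were at p under 0.05 and 0 passed.

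Of 1342 values of named genes under alternatives, 13 reversed sign. Ggps1 was at -0.19 on log2(TPM + 1), -0.21 on log2(TPM + 0.1) and -1.17 on linear TPM. Insig1 was at 0.062 with sample weights and 0.010 without combination mice 2 and 3. Leaving out 1 mouse gave Asns -3.82 to 1.07, Fasn -0.52 to 0.017, Ggps1 -0.0079 to 0.28, Insig1 -0.51 to 0.018 and Lss -0.49 to 0.26. Apart from libraries left out and the filter, the cause was not tested. Depth limits genes near 1 CPM, such as Tlr5, with 4 to 125 estimated counts per library.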
